A study of Mus musculus with 2 samples.

Results

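Late-numbered microRNA genes, those whose symbol is Mir followed by a number of 5000 or more, were examined in microRNA sequencing of the newborn mouse hindbrain. The members were chosen by symbol alone, through GENCODE M21, and they make up 421 of the 1973 microRNA gene rows in the count tables. They were set beside 341 early-numbered genes, with a number below 500, and 280 genes numbered from 500 up to the late class. The series holds 1 group of 2 libraries, prepared from total RNA of the hindbrain of 2 pups of strain B6NCrl on the day of birth, called pup 1 and pup 3 in the labels. The labels name no treatment or engineered allele, give an RNA size range under 30 nt, and leave the sex of the pups unrecorded. Whole hindbrains were used, so the RNA is a mixture of all cell types of the tissue.

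A microRNA is a short RNA that guides Argonaute proteins to messenger RNAs, and its seed, bases 2 to 8, sets most of its pairing. Most microRNAs are cut out of a hairpin by the nuclear enzyme Drosha and then by Dicer. A mirtron is an exception, since splicing rather than Drosha makes at least a single end of its hairpin, which then coincides with the end of an intron. Registry numbers are given in order of submission, so a low number marks a sequence that was described early, often by cloning from abundant RNA, and a high number marks a sequence that was described late.

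Same-strand counts over all microRNA genes came to 2459757 in pup 1 and 3012320 in pup 3. Levels are given as CPM, the counts scaled to that total and to a library of 1e6, so that 1 count was worth 0.407 CPM in pup 1 and 0.332 CPM in pup 3. Where a gene had no count, its level may still lie as high as 1.22 CPM (pup 1) or 0.996 CPM (pup 3), the values of 3 counts, and these limits cover counting error only. The tables list 40.2% and 42.0% of all reads as mapped to several loci, outside any gene. Of the 13 tissue markers fixed for the check, a part is given here. The Hox-encoded Mir10a, a marker of caudal tissue, had 29630 ± 8607 CPM (SD, n = 2, as for all following values with ±), and the neuronal Mir137 had 12408 ± 1160 CPM. Highest of the 13 was the endothelial Mir126a, at 35574 ± 1920 CPM. The oligodendrocyte Mir219a-2 and Mir338 had 939 ± 156 and 758 ± 110 CPM. Of markers of other tissues, the liver microRNA Mir122 had 43.7 ± 2.55 CPM. Mir1a-1 of striated muscle had no count, while Mir206, also of striated muscle, had 112 ± 18.7 CPM. Mir451a of red blood cells differed between the pups, at 134 and 37.5 CPM.

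The sequences of the late-numbered genes with the most counts are shown first, because these few genes carried most of the signal. RefSeq (GRCm38.p6) gave a mature sequence for 381 of the 421 genes. Each is written 5′ to 3′ with the seed in capitals.
miR-6540-3p: uCUGAAGCuugcuuaccucca
miR-7689-5p: cCGAGGCAgccuggcuuag
miR-7689-3p: uUAGAGCCagacugccuggguuu
miR-6944-3p: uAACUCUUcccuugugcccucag
miR-7688-5p: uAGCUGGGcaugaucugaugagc
miR-8114: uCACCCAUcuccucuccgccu
miR-5113: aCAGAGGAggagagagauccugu
None of these 7 seeds occurs among the mature sequences matched to early-numbered genes. Mir8112 and Mir6236, also among the leading genes, are left out because their precursors share sequence with many transcripts. For Mir5099 the table used here holds the hairpin, and it is printed whole in lower case.
Mir5099 hairpin: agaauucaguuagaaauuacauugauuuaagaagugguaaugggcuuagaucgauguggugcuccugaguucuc

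Late-numbered genes were often present at a trace and almost never abundant. At least 1 count in either pup was found for 213 of 421 late-numbered genes (50.6%), against 273 of 341 early-numbered genes (80.1%), 165 of 280 genes numbered in between (58.9%) and 35.4% of all rows. All rows also include 852 rows whose symbol lies in no number class, and rows without a symbol. At 10 CPM in both pups the classes lay further apart. This level was reached by 7 late-numbered genes (1.66%), 211 early-numbered genes (61.9%) and 77 genes in between (27.5%), against 15.5% of all rows. No late-numbered gene had 1000 counts over both pups, a level that 151 early-numbered genes passed. The median gene had 1 count over both pups in the late class and 613 in the early class. These are descriptions of gene classes, and genes are not replicates, so no test was made between them.

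**Figure D1:**
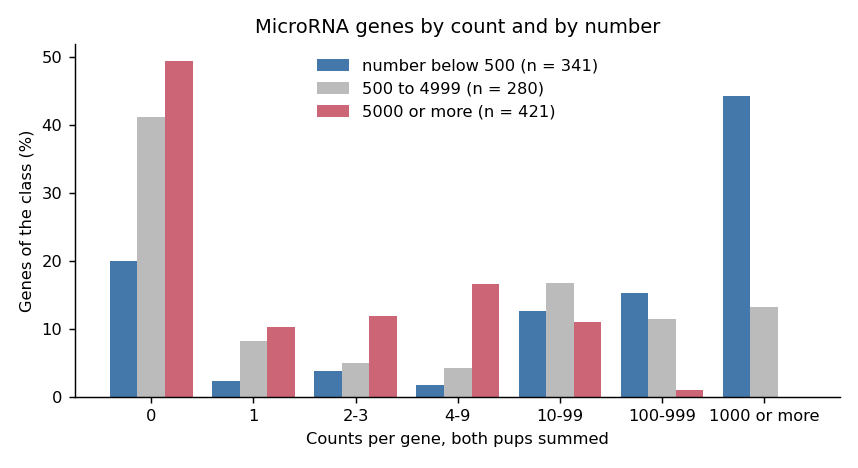
Percent of genes of each number class (vertical axis) by the counts of a gene summed over both pups (horizontal axis), for 341 early, 280 middle and 421 late-numbered genes. The late class fills the lowest bins, with 49.4% at 0, while 44.3% of the early class had 1000 counts or more.

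All 421 late-numbered genes together held 1846 counts in pup 1, or 0.0750% of the library (exact 95% interval 0.0717% to 0.0786%), and 2186 counts in pup 3, or 0.0726% (0.0696% to 0.0757%). The 2 pups thus gave shares with overlapping intervals. The early class held 81.8% ± 1.87 and the middle class 5.49% ± 0.328. Within the late class the counts were concentrated in a few genes. The leading gene held 24.5% ± 3.11 of the late-numbered counts, the first 3 held 54.1% ± 2.84 and the first 20 held 75% ± 0.247. At the other end, 163 of the 213 genes with a count had 9 or fewer over both pups, and 43 had a single count. Of the 178 late-numbered genes seen in pup 1, 144 (80.9%) were seen again in pup 3, compared with 260 of 261 (99.6%) in the early class.

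The gene with the most counts was Mir6540, at 412 counts (167 CPM) in pup 1 and 584 (194 CPM) in pup 3. It lies in an intron of Gap43, which encodes a protein of growing axons (chr16:42303362-42303469, mm10, minus strand), and it ranked 199 among all 1973 rows. Mir7689 followed with 344 and 377 counts (140 and 125 CPM). It has no host on its own strand and lies opposite Sorcs2, a sortilin-family receptor gene (chr5:36301570-36301628). Mir5099, between genes on chromosome 12 (chr12:36816205-36816278), had 206 and 266 counts (83.7 and 88.3 CPM). For each of these 3 genes the values of the pups lay close to each other, and no other late-numbered gene exceeded 40 CPM in either pup.

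Mir6944 came next, with 92 counts (37.4 CPM) in pup 1 and 65 (21.6 CPM) in pup 3. Its precursor is a whole intron of Dbn1, the gene of the actin-binding protein drebrin of dendritic spines (chr13:55477681-55477776). Mir8112, in an exon of Krcc1 on chromosome 6, had 56 and 39 counts, and its precursor shares 20 nt with transcripts of 104 other genes. Mir6236, between genes on chromosome 9, had 41 and 43 counts and shares 20 nt with transcripts of 17 other genes. Which part of either precursor gave the counts cannot be told from these tables. Mir8114, in an exon of the glutamine synthetase gene Glul on chromosome 1, had 28 and 35 counts and is the last of the 7 genes at 10 CPM in both pups. Mir7688 had 42 and 24 counts and passed that level in pup 1 alone.

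The rest of the 20 leading genes had 45 counts or fewer over both pups. Mir5113 lies in an exon of Tnrc6b, which encodes a partner of Argonaute in silencing, and had 21 and 24 counts. Mir5126, opposite the neuronal gene Dner, had 16 and 18, and Mir5626, between genes on chromosome 9, had 11 and 23. Mir7666, in an intron of the growth factor gene Fgf20, had 10 and 24. The others were Mir6897, Mir7083, Mir6928, Mir6958, Mir7070, Mir6951, Mir6934 and Mir7226, and all 8 end at a splice site of their host. At the threshold of the class, Mir5098 had 1 and 0 counts and Mir5100 had 5 and 2, while the 3 highest numbers below 5000, Mir3965, Mir3968 and Mir3971, had none.

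**Figure D2:**
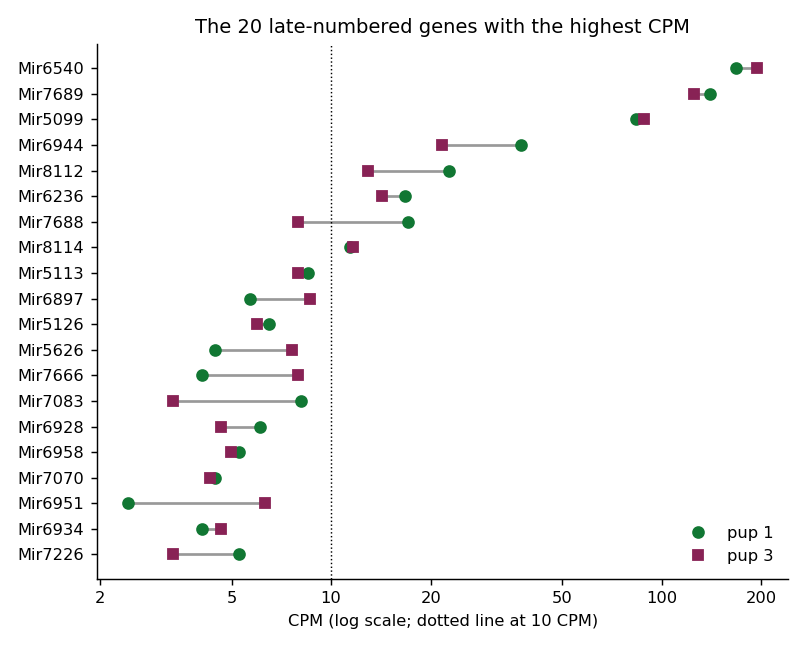
CPM in pup 1 (circles) and pup 3 (squares) of the 20 late-numbered genes with the highest mean CPM, on a log axis with a dotted line at 10 CPM. Mir6540, Mir7689 and Mir5099 stand above the rest, and Mir6944, Mir8112 and Mir7688 lie visibly lower in pup 3 than in pup 1.

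Late-numbered genes with a count lay mostly inside a longer gene on their own strand. Of 97 late-numbered genes that overlap an exon of a longer gene on their strand, 62 had a count (63.9%), and of 226 in an intron, 136 did (60.2%). Where the only gene at the locus lies on the other strand, 6 of 40 had a count (15.0%), and between genes 9 of 58 did (15.5%). In the early class the same 4 places gave 64 of 66 (97.0%), 111 of 148 (75%), 25 of 37 (67.6%) and 73 of 90 (81.1%). Early-numbered genes without a host on their strand were thus seen at 77.2%, near the 81.8% of those with a host. The middle class lay between, at 44.0% of 84 genes without a host and 65.3% of 196 genes with a host. Its genes opposite another gene had a count in 3 of 18 cases (16.7%), and those between genes in 34 of 66 (51.5%). In the late class the values were 15.3% of 98 genes without a host and 61.3% of 323 genes with a host. This late contrast held for traces and not for higher levels. Above 3 counts in either pup the late shares were 9.18% without a host and 26.6% with a host. Above 3 counts in both pups they were 8.16% and 11.1%, and at 10 CPM in both pups 3.06% and 1.24%. Hosts here are long genes of any biotype. With protein-coding hosts alone, the early shares in the same 4 places were 88.2% of 17, 73.5% of 117, 72.1% of 43 and 86.0% of 164 genes. The late shares were then 66.3% of 92, 62.5% of 216, 17.5% of 40 and 13.7% of 73 genes.

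**Figure D3:**
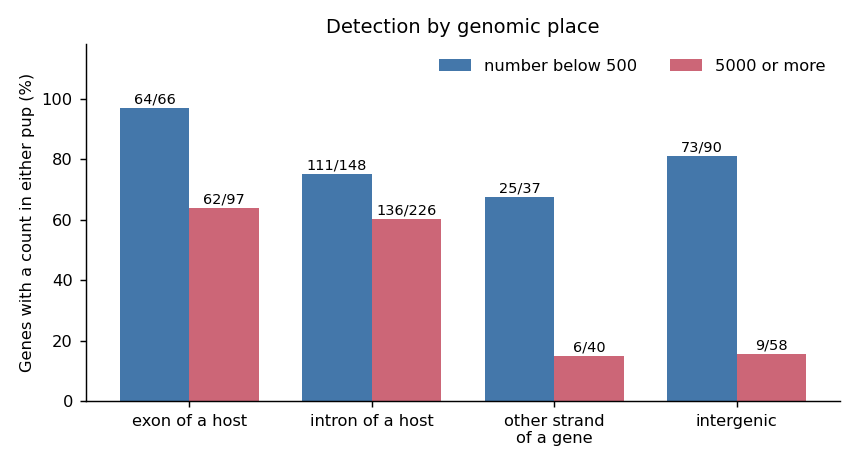
Percent of genes with a count in either pup (vertical axis, from 0) by genomic place, for genes numbered below 500 and of 5000 or more, with genes over genes in each bar. Late-numbered genes outside a host on their strand reach 15.0% and 15.5%, and all other bars lie at 60.2% or above.

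The low values outside hosts went with a stretch of the numbering. From Mir6236 to Mir6481, a block of 92 genes, 6 had a count (6.52%), and 62 of the 92 have no host on their strand. Its members with counts were Mir6236, Mir6240, Mir6359, Mir6392, Mir6399 and Mir6418. In this block 4 of 30 hosted genes (13.3%) and 2 of 62 others (3.23%) had a count. Over the remaining late numbers the shares were 194 of 293 hosted genes (66.2%) and 13 of 36 others (36.1%). The block was singled out after its values were seen. Its precursors were long, with a median of 105 nt against 67 nt for the other late numbers, and had a weaker predicted folding energy per base, -0.31 against -0.41 kcal/mol per nt. What the block's low detection owes to place, length or folding was not tested.

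Many late-numbered precursors end exactly where an intron ends. Of 421 genes, 189 (44.9%) have the 3′ end of the precursor within 10 nt of the splice acceptor of a host intron, and in 170 of them the 2 positions coincide. In 18 of the 189 the 5′ end also lies within 10 nt of the splice donor, and these are called whole introns here, the layout of a mirtron. Both ends coincide exactly with those of the intron in 14 of the 18, and in the other 4 an end lies up to 8 nt away. By contrast, in 171 the acceptor end alone is shared to within 10 nt, and these are called tailed here. Where the 2 positions coincide, this is the layout known as a 5′-tailed mirtron. Some of the 171, such as Mir5101 and Mir5134, instead run past the acceptor. Only 6 genes share the donor end alone. The early class has 1 gene at an acceptor among 341, and the middle class 21 among 280. Most of the 189 genes fall in 2 runs of the numbering, with 89 of the 99 genes from 6537 to 6999 and 90 of the 110 genes from 7000 to 7243.

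These precursors can be read directly. The hairpins of 3 whole introns and 4 tailed ones are shown 5′ to 3′ on their own strand, with the first bases GU in capitals where the precursor begins at the splice donor, and the last bases AG in capitals where it ends at the acceptor.
Mir6944 (whole intron of Dbn1): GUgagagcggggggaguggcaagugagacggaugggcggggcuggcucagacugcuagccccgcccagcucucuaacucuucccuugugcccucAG
Mir6958 (whole intron of Dennd6b): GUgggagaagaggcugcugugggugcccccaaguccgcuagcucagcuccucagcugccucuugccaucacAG
Mir7080 (whole intron of Cpne7): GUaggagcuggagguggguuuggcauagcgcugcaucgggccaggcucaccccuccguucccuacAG
Mir6897 (acceptor end, intron of Uggt1): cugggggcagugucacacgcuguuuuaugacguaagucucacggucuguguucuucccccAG
Mir7083 (acceptor end, intron of Dock6): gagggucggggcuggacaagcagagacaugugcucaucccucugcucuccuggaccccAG
Mir6928 (acceptor end, intron of Atp6v0a1): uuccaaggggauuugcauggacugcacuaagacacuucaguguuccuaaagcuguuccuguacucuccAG
Mir7226 (acceptor end, intron of Ptprf): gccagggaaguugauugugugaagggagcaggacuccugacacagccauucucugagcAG
The letters AG end 171 of the 189 acceptor precursors (90.5%), 19 of the other 232 late-numbered precursors (8.19%) and 26 of 341 early-numbered precursors. Among annotated 3p arms, AG ends 126 of 161 from acceptor precursors (78.3%) and 9 of 68 from other late-numbered genes (13.2%). In the early class it ends 13 of 240 (5.42%). The 189 were chosen for ending at or near an acceptor, which usually reads AG. Both acceptor shares therefore follow largely from that choice.

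A count was found more often for the genes at a splice acceptor than for the rest of the late class. Of the 189, 134 had a count (70.9%), compared with 79 of the other 232 (34.1%). Genes that lie in a host but touch no intron end had a count in 61 of 128 cases (47.7%). By kind, 13 of 18 whole introns (72.2%) and 121 of 171 tailed precursors (70.8%) had a count. Outside the block from Mir6236 to Mir6481, which holds no acceptor gene, hosted genes away from an acceptor had a count in 60 of 104 cases (57.7%). With more than 3 counts in either pup required, the shares were 58 of 189 and 37 of 232. In the middle class 20 of the 21 acceptor genes had a count (95.2%), and 7 of the 21 reached 10 CPM in both pups. Its 9 whole introns all had a count, and 6 of them reached that level.

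**Figure D4:**
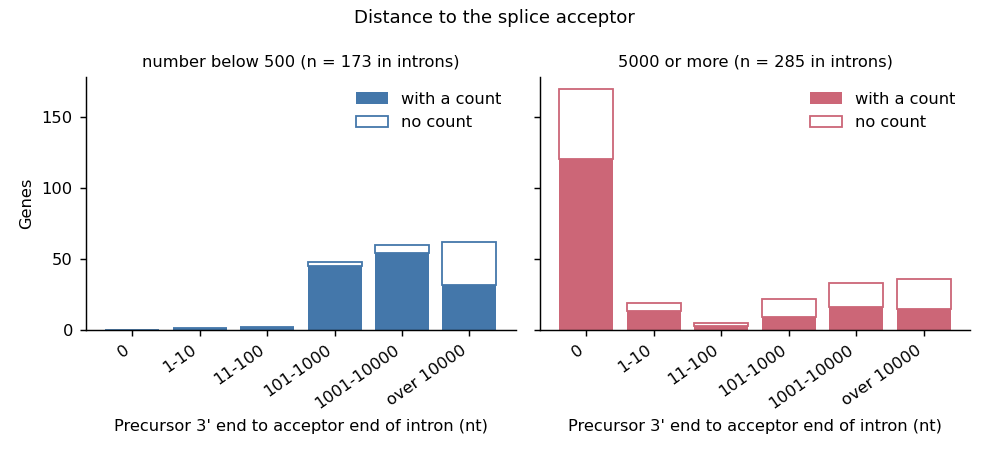
Number of genes (vertical axis) by the distance in nt from the 3′ end of the precursor to the acceptor end of its intron (horizontal axis), for 173 early-numbered and 285 late-numbered genes that lie in an annotated intron, filled where the gene had a count. At a distance of 0 there are 170 late-numbered genes, 121 of them with a count, and no early-numbered gene.

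The levels of the late-numbered mirtron-like genes were low all the same. Together the 189 genes held 486 counts in pup 1 and 527 in pup 3, and the median gene had 2 counts over both pups. Mir6944 was the only gene among them at 10 CPM in both pups. Of the whole introns, 4 reached 1 CPM in both pups. After Mir6944 these were Mir6958, with 13 and 15 counts from a 73-nt intron of Dennd6b, and Mir7070, with 11 and 13 counts from an 86-nt intron of Fbxw9, an F-box protein gene. The last was Mir7080, with 9 and 10 counts from a 67-nt intron of Cpne7, a copine gene. Mir6958 and Mir7080 also overlap an exon of another transcript of their host. The pups differed little at these 3 genes, by at most 2 counts.

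Among the tailed genes Mir6897 led, with 14 and 26 counts from the end of a 1780-nt intron of Uggt1, which encodes a folding sensor of glycoproteins. Mir7083, at the end of a 1833-nt intron of Dock6, had 20 and 10, and Mir6928, in the proton pump gene Atp6v0a1, had 15 and 14. Mir6951, in the antizyme inhibitor gene Azin1, had 6 and 19, Mir6934, in Tbc1d16, had 10 and 14, and Mir7226, in a 112-nt intron of the receptor phosphatase gene Ptprf, had 13 and 10. Each count is per precursor, so reads of the 5p arm, the 3p arm and other pieces of the intron cannot be told apart. The same limit holds for Mir8114 and Mir5113, whose precursors lie in exons of messenger RNAs.

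The precursors of the late class differed from the early class in build. Their median length was 72 nt (quartiles 63 to 99) against 83.0 nt, their median GC content 54.8% against 46.4%, and their median folding energy -0.39 against -0.43 kcal/mol per nt. Few share sequence with another microRNA locus. An identical stretch of 20 nt was shared with another annotated microRNA gene by 21 of 421 late-numbered genes (4.99%) and by 141 of 341 early-numbered genes (41.3%). With the sharing genes left out, 208 of 400 late-numbered genes (52.0%) and 184 of 200 early-numbered genes (92.0%) had a count.

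Within the late class, genes with a count had shorter and more tightly folding precursors. The median length was 66.0 nt for the 213 genes with a count and 87.5 nt for the 208 without, and the folding energies were -0.41 and -0.37 kcal/mol per nt. Among acceptor genes the lengths were nearly equal (66.5 and 66.0 nt), as were the energies (-0.40 in both). The contrast was wider in the other 232 genes, where the 79 with a count had a median of 64.0 nt and -0.44 kcal/mol per nt and the 153 without had 101 nt and -0.34. The block from Mir6236 to Mir6481 makes up 86 of those 153 genes, with a median of 105 nt and -0.31 kcal/mol per nt. Outside the block the contrast was smaller, at 63 nt and -0.45 kcal/mol per nt for 73 genes with a count and 75 nt and -0.40 for 67 without. GC content was higher in genes with a count in both sets, at 58.6% against 55.0% for acceptor genes and 56.1% against 51.2% for the others. For the others outside the block it was 56.1% against 53.4%.

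**Figure D5:**
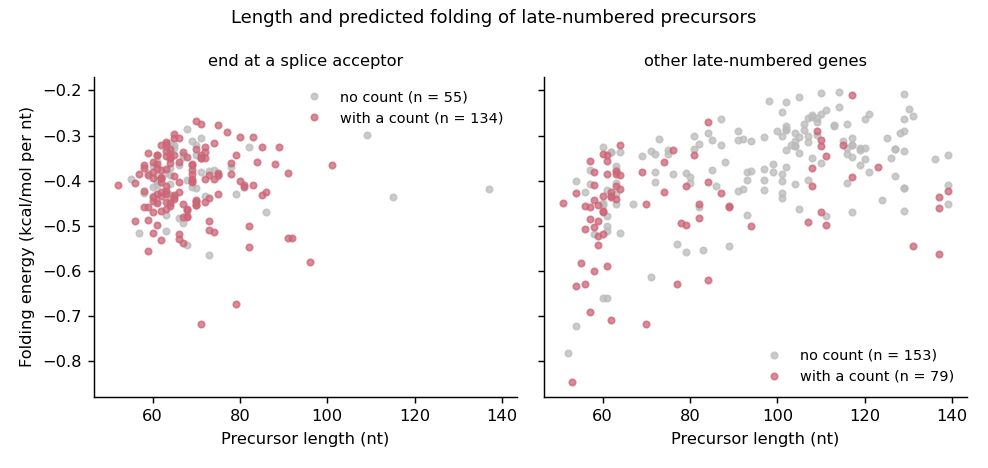
Predicted folding energy in kcal/mol per nt (vertical axis) against precursor length in nt (horizontal axis) for 189 late-numbered genes that end within 10 nt of a splice acceptor (left) and 232 others (right), coloured by whether the gene had a count. In the left panel genes with and without a count overlap, and in the right panel the genes without a count gather at greater length and weaker folding, 86 of 153 of them from the block Mir6236 to Mir6481.

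Some late-numbered genes carry the seed of a well-known microRNA family. Of the 381 genes with a mature sequence, 35 share a seed with a mature sequence of the early class. No count was found for 22 of the 35 (62.9%), against 48.3% of the 381 and 64.6% of all rows. Within the block from Mir6236 to Mir6481 the shares were 16 of 17 sharing genes and 73 of the 78 with a mature sequence, and outside it they were 6 of 18 and 111 of 303 (33.3% and 36.6%). Examples without a count are shown because their seeds belong to widely studied families.
miR-6353: uAGCAGCAcguauuuauccuauu
miR-6342: cAGCAGCAaucuggucuuugag
miR-6367: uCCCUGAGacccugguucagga
miR-6341: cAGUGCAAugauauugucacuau
miR-6383: uAAAGUGCugugucacggaca
miR-6369: uGGCUCAGuucaguguuggugag
In capitals are the seeds of miR-15 and miR-16 (first 2 lines), miR-125, miR-130 and miR-301, miR-17 with its relatives, and miR-24. All 6 genes had 0 counts in both pups, and all lie in the block from Mir6236 to Mir6481. The sharing gene with the most counts was Mir6958, whose 5p arm has the seed of the 3p arms of miR-30c, at 13 and 15 counts. Then came Mir7070, with the seed of miR-344g-3p, and Mir6240, with the seed of miR-330-3p, at 11 and 12 counts. The seeds AGCAGCA and GGCUCAG also recur within the late class, in 3 and 4 genes.

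The pups were compared gene by gene where either had at least 10 counts. By a two-sided exact binomial test on totals scaled by TMM (Benjamini-Hochberg adjusted over 395 genes), 181 genes differed between the 2 libraries, or 45.8%. Of 34 late-numbered genes tested, 4 did (11.8%), all 4 lower in pup 3 and all by over 1.5-fold. Of all genes tested, 9.62% both passed the test and differed by over 1.5-fold. The test compares 1 library with another, not conditions. Of the 13 tissue markers, 4 were also lower in pup 3. These were Mir451a, at 134 and 37.5 CPM, the caudal Mir10a, at 35716 and 23544 CPM, and Mir10b, at 20858 and 10196 CPM, and the neuronal Mir149, at 17477 and 15600 CPM. Of the others, 8 were higher in pup 3 and Mir1a-1 had no count. Their part in the differences at late-numbered genes was not tested. Counts were too few in most late-numbered genes to show a moderate difference. The median width of the counting interval was 2.59 on the log2 scale, compared with 0.23 in the early class, and 7 of the 34 genes had an unadjusted exact p under 0.05.

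The 4 genes were Mir6944, Mir7688, Mir8112 and Mir7083. Mir6944 fell from 92 to 65 counts (log2 fold of pup 3 over pup 1 -0.87, interval -1.36 to -0.40, exact binomial adjusted p = 0.000572). Mir7688 had 42 and 24 counts (log2 fold -1.17, interval -1.97 to -0.43, adjusted p = 0.00306, same exact test). Mir8112 had 56 and 39 (-0.89, interval -1.53 to -0.28, adjusted p = 0.00661, same exact test), and Mir7083 had 20 and 10 (-1.34, interval -2.64 to -0.21, adjusted p = 0.0339, same exact test). With plain totals Mir7083 did not pass (exact adjusted p = 0.0530) and Mir6540 did (log2 fold 0.21, exact adjusted p = 0.0490). The leading genes were close in both pups, with log2 folds of 0.13 for Mir6540 (interval -0.06 to 0.31), -0.24 for Mir7689 (-0.46 to -0.03, exact adjusted p = 0.0525) and -0.01 for Mir5099 (-0.28 to 0.26).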

How the data were processed

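MicroRNA sequencing libraries of 2 newborn hindbrains were used, named by pup in the labels, which give both the same donor identifier. The authors deposited raw read counts per microRNA gene on mm10 with GENCODE M4, per the listings beside the tables. The aligner is not given in the sources used here. Of 3 count columns, the one on the gene's strand was used, its meaning inferred from the values, and totals leave out 4 rows for reads without a gene (unmapped reads were 13.7% and 12.4% of all). Symbols, hosts and precursors came from GENCODE M21 (same assembly), which matched 1894 of 1973 identifiers. Of these, 852 had a symbol outside the number classes. Folding energies are from RNAfold 2.7.2. Shared stretches are 20 identical nt on either strand in transcripts of a gene elsewhere.

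Place was exon before intron on the gene's strand, then other strand, then intergenic. Hosts are genes of all long biotypes. TMM factors came from edgeR 4.0.16 in R 4.3.3, binomial tests over all genes and Clopper-Pearson intervals from scipy 1.17.1, and folds have a prior of 0.5 counts. The binomial test was tested on simulated data with counting error alone and plain totals. That check holds no variation between animals, so it does not cover differences between pups beyond counting error. A quasi-likelihood fit could not be made with 1 library a side. Named genes are the 20 with the highest mean CPM, 3 on each side of number 5000, whole introns at 1 CPM in both pups, and genes past the test by over 1.5-fold. A further part of the rule, more opposite-strand than same-strand counts in both pups with over 3 of them in each, was met by no member. Members and lists were chosen with earlier results of these data known. The split of intron ends into donor and acceptor, the block from Mir6236 to Mir6481, the seed families shown and other genes named were chosen after values were seen.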

Additional observations from a re-analysis of the deposited data

Results flagged for a closer look

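Opposite-strand counts, which no comparison above uses, were few at late-numbered genes. They came to 6 in pup 1 and 15 in pup 3 over all 421 genes, spread over 8 genes. At 2 genes they exceeded 3 in a pup, the limit used above for a gene without counts. Mir5620 had 2 and 5 opposite-strand counts (7 in all) against 0 and 1 on its own strand, and Mir7654 had 1 and 5 (6 in all) against 8 and 7.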

How the results depend on the processing

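The class shares kept within 1.5 times of their values when a pup was left out, on either-strand counts, with TMM or median-of-ratios totals, with 6000 as the lower or 1000 as the upper bound of a class, and by place with protein-coding hosts, hosts on either strand or without retained-intron transcripts. The floor mattered more. With more than 3 counts in either pup, 22.6% of late-numbered genes counted as seen, 30.7% of acceptor genes, 15.9% of other late-numbered genes and 19.5% of hosted genes with no intron end, and the last was 30.5% with a count in both pups. At 1 CPM in both pups 13.5% of late-numbered genes passed, and at 100 CPM 0.475%. Their share of the library was 0.0720% on either-strand counts, 0.0715% without genes that share 20 nt, 0.0609% from number 6000 and 0.0557% without Mir6540. The between-pup test called 4 late-numbered genes under each scaling. Retained-intron transcripts alone put 18 of the 97 exon genes in an exon. No paired analysis was possible because there is 1 group. At 1 to 9 counts, depth limits the order of most members, and no count does not show absence.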
